A study of Mus musculus with 2 samples.

Results

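The data set was read for 8 genes of immune receptor signalling, all among the 16585 genes and transcripts measured: the inhibitory receptors Pirb and Fcgr2b, the activating receptors Fcgr3, Fcgr4, Fcer1a and Cd200r3, and the signalling adaptors Fcer1g and Tyrobp. They were chosen by the ratios of this same comparison, so their values are a description and carry no test. RNA came from G1E-ER-GATA-1 cells, a mouse erythroid line that is GATA-1-null and carries GATA-1 as a fusion to an oestrogen receptor domain, which β-estradiol switches on. Cells were given ETO2 siRNA, against the corepressor encoded by Cbfa2t3, or control siRNA, followed in both cases by 24 h of β-estradiol. On each of 2 two-colour Agilent arrays, ETO2 siRNA RNA carried Cy3 (green) and control siRNA RNA carried Cy5 (red), with 1.2 µg of total RNA per dye. Dyes were not swapped, so a dye effect of a probe enters its ratio with the same sign on both arrays. The labels number the arrays as replicates without naming separate cultures, and the arrays lay on 1 slide. Every ratio is ETO2 siRNA over control siRNA on the log2 scale, with the SD over the 2 arrays. Unless another processing is named, it follows background correction and loess normalization within each array.

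Paired immunoglobulin-like receptors and Fc receptors set how strongly blood cells answer to antibodies and to self molecules. Activating members carry no signalling motif of their own and work through Fcer1g (the common Fc receptor gamma chain) or Tyrobp (DAP12), small membrane adaptors with an activation motif that Src and Syk family kinases read. Inhibitory members carry their own inhibitory motifs and recruit phosphatases. In blood these genes are best known from mast cells, basophils, macrophages and other myeloid cells, not from red cell precursors.

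Of the genes, 7 were found by their own symbol on the array. Pirb was found by its RefSeq accession NM_011095, under the older array name Lilrb3. The 8 genes had 14 probes on 23 spots, and the probes in the following lines are printed because they read the receptor and adaptor transcripts whose ratios are compared. The Fcgr2b and Fcgr3 lines are shown because the extracellular parts of these receptors are known to be very alike. Whether these probes tell the transcripts of those relatives apart was not tested.
Cd200r3, A_52_P5942: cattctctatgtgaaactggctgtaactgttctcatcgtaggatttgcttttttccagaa
Fcgr2b, A_52_P545613: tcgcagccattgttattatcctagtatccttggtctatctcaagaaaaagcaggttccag
Fcgr3, A_52_P408757: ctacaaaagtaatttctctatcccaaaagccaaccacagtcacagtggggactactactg
Tyrobp, A_51_P261517: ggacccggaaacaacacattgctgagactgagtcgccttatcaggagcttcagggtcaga
The printed Fcgr2b and Fcgr3 probes share no run longer than 6 bases, which compares the probes with each other and not with the transcripts. Where each probe lies in its transcript was not determined. Probes from different parts can lack a long shared run even between like receptors. Over the 14 probes, the longest run shared with any probe of another gene name was 13 or 14 of 60 bases. Pairing with the transcript of another receptor was not tested, since no transcript sequences were used here. The 2 Pirb probes overlap by 50 bases, with the 10 bases aagggactct at the 5′ end of the brighter and ataaagctag at the 3′ end of the dimmer standing outside the overlap, so they are not independent readings of the gene.

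The inhibitory receptors were lower after ETO2 siRNA. Pirb, a receptor for MHC class I that restrains myeloid and B cells, had normalized levels of 7.37 and 7.33 (log2 scanner units) on arrays 1 and 2 in ETO2 siRNA cells, against 8.96 and 8.83 in control siRNA cells. The groups did not overlap, and the 2 arrays gave log2 ratios of -1.59 and -1.50, with a mean of -1.54 ± 0.06 (SD, n = 2), or 34.3% of control. It had the fifth lowest ratio of all genes measured. Fcgr2b, the inhibitory receptor for IgG, had levels of 7.46 and 7.40 in ETO2 siRNA cells, against 8.33 and 8.28 in control siRNA cells. Its ratio was nearly the same on both arrays, at -0.876 and -0.871, or 54.6% of control. These probes were well above background in both channels of both arrays, and none was saturated.

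**Figure D1:**
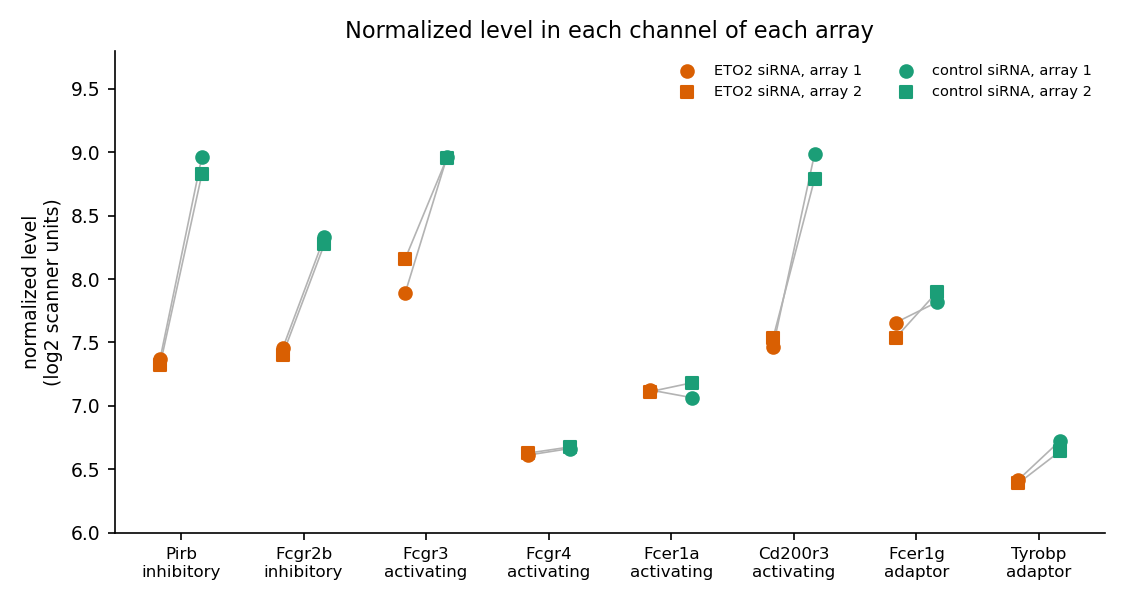
Normalized level (log2 scanner units, y axis) of the probe that stands for each gene, in the ETO2 siRNA channel (orange, left) and the control siRNA channel (green, right) of array 1 (circles) and array 2 (squares), with grey lines joining the channels of an array. Pirb, Fcgr2b, Fcgr3 and Cd200r3 lie clearly lower after ETO2 siRNA on both arrays, while Fcgr4 and Fcer1a lie close together. Levels of different probes are not comparable with each other.

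The activating receptors were split. Cd200r3, a relative of the CD200 receptor that couples to Tyrobp and is known from mast cells and basophils, had levels of 7.46 and 7.53 in ETO2 siRNA cells, against 8.99 and 8.79 in control siRNA cells. Its log2 ratio was -1.39 ± 0.19 (SD, n = 2), or 38.1% of control, with array 1 at -1.53 and array 2 at -1.26. It had the twelfth lowest ratio measured. Fcgr3, the low-affinity activating receptor for IgG, had levels of 7.89 and 8.16 in ETO2 siRNA cells, against 8.96 and 8.95 in control siRNA cells. Its log2 ratio of -0.93 ± 0.20 (SD, n = 2), or 52.5% of control, was close to that of its inhibitory relative Fcgr2b, and its arrays lay further apart, at -1.07 and -0.79.

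Fcgr4 and Fcer1a were not called. Fcgr4, another activating IgG receptor, had levels of 6.61 and 6.63 in ETO2 siRNA cells, against 6.66 and 6.68 in control siRNA cells, a mean log2 ratio of -0.05, or 96.6% of control. It read -0.25 with the deposited ratios and -0.34, called lower, with the processed signals. Fcer1a, the chain of the high-affinity IgE receptor that binds IgE, had levels of 7.13 and 7.11 in ETO2 siRNA cells, against 7.06 and 7.18 in control siRNA cells. Its groups overlapped, with log2 ratios of 0.06 and -0.07 and a mean of 99.7% of control. Both genes were well above background in both channels, so both transcripts gave a reading, and the difference between groups was smaller than the spread between arrays for Fcer1a.

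Both adaptors were lower. Fcer1g, which Fcgr3, Fcgr4 and Fcer1a need at the cell surface, had levels of 7.66 and 7.54 in ETO2 siRNA cells, against 7.82 and 7.90 in control siRNA cells. Its log2 ratios were -0.16 and -0.36, or 83.3% of control. Tyrobp, the partner of Cd200r3, had levels of 6.42 and 6.39 in ETO2 siRNA cells, against 6.72 and 6.64 in control siRNA cells, and log2 ratios of -0.31 and -0.25, or 82.4% of control. Its ETO2 siRNA channel was well above background on 1 array only, and its size depended on the processing, at -0.65 with an offset of 0, -0.80 with the deposited ratios and -0.89 with the processed signals. With loess and an offset of 50, the fall of either adaptor was smaller than that of Pirb, Cd200r3, Fcgr3 or Fcgr2b on each array.

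In all, 7 of the 8 genes were lower on both arrays, as were 43.8% of all genes. With limma, 6 of the 8 were called lower and 0 higher at an adjusted p under 0.05, where the same fit called 40.7% of all genes, 22.3% lower and 18.4% higher. Since the genes were chosen by this comparison, nothing is read from those shares. Pirb and Cd200r3 were at least 2-fold lower on both arrays, which held for 0.229% of all genes, and for 0.687% with the processed signals and 1.72% with median centring. The median log2 ratio of the 8 was -0.58 and that of all genes -0.02. By role, the median was -1.21 for the 2 inhibitory receptors, -0.49 for the 4 activating receptors and -0.27 for the 2 adaptors.

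Of all calls, 45.2% were higher, against 25.5% with the scanner's processed signals and 4.12% with median centring in place of loess. Median centring put the median of all genes at -0.31 and that of the 8 genes at -0.82, a gap of 0.51 against 0.56 with loess. Cbfa2t3, the targeted gene, had a log2 ratio of -0.42 ± 0.05 (SD, n = 2) on its brighter probe, or 74.6% of control, and -0.23, or 85.6% of control, on the other. Median spot signals were 77.5 to 82.8 scanner units for ETO2 siRNA and 105 on both arrays for control siRNA, over backgrounds of 44 to 47.

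Every gene with several probes told the same direction where the probes were above background. The dimmer Pirb probe had a log2 ratio of -1.13, against -1.54 on the brighter one. For Fcgr2b, a probe with 10 spots per array had a mean of -0.76, and its spots ranged from -1.16 to -0.65 on array 1 and from -1.05 to -0.43 on array 2. All 10 spots on either array were lower after ETO2 siRNA. The third Fcgr2b probe read -0.42, the second Fcgr3 probe -0.54 and the second Cd200r3 probe -0.77. A second Fcer1g probe was not well above background in either channel and gives no ratio here.

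**Figure D2:**
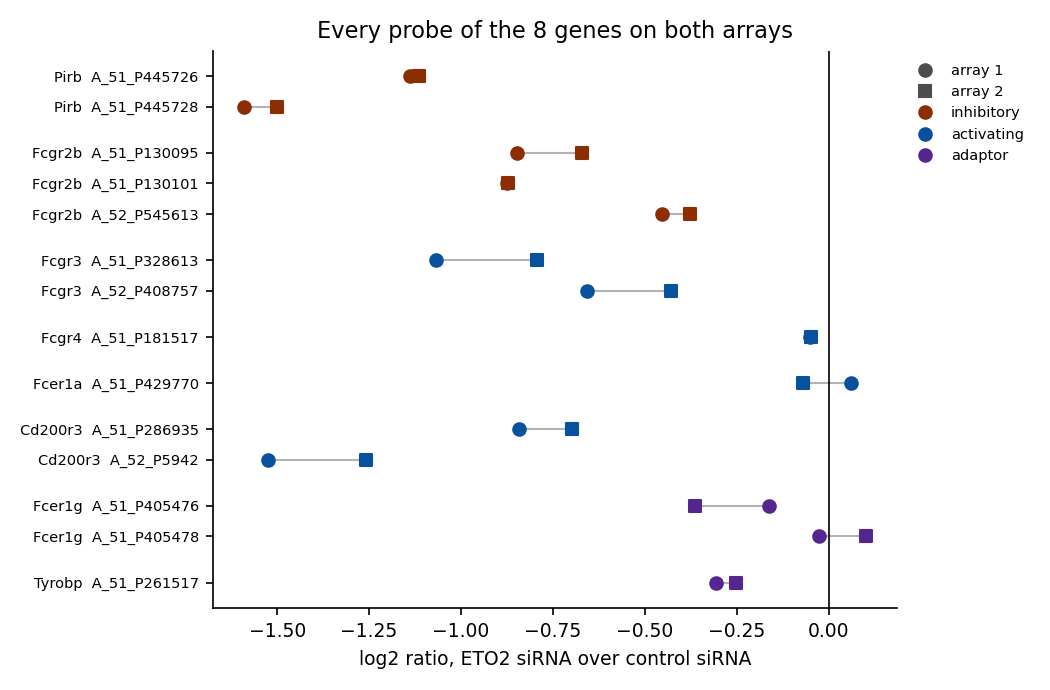
Log2 ratio of ETO2 siRNA over control siRNA (x axis) of each of the 14 probes on array 1 (circles) and array 2 (squares), coloured by the role of the gene, with the probe names on the y axis. In 12 probes both arrays lie below 0, and the Fcer1a probe and the second Fcer1g probe (not above background) straddle 0.

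In all 4 genes with several usable probes the brightest one had the largest fall. The background correction adds an offset of 50 to both channels, which by construction draws the ratios of dim probes toward 0. Plain subtraction of the local background was an alternative chosen after the data were seen. It also replaced loess by centring each array on the median of probes well above background in both channels. Plain subtraction with loess was not run. An offset of 0 with loess kept changed the offset alone. There the Cd200r3 probes read -1.71 and -1.58, and the Fcgr3 probes -1.07 and -0.90. The Fcgr2b probes read -1.12, -1.07 and -0.90, and the Pirb probes -1.94 and -1.55. With plain subtraction, the gap between the probes of a gene fell to 0.16 for Cd200r3, against 0.62 with the offset. For Fcgr3 it was 0.19 against 0.39, and for Fcgr2b 0.28 against 0.46. Pirb kept its gap, at 0.40 against 0.42. Plain subtraction gave larger falls for the called receptors, 3.86-fold for Pirb, 3.29-fold for Cd200r3, 2.17-fold for Fcgr2b and 2.10-fold for Fcgr3, where the offset gave 2.92-fold, 2.62-fold, 1.83-fold and 1.91-fold. Tyrobp had a log2 ratio of -0.55 with plain subtraction and -0.28 with the offset. Fcgr4 and Fcer1a read 0.01 and 0.05 and stayed close to 0.

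**Figure D3:**
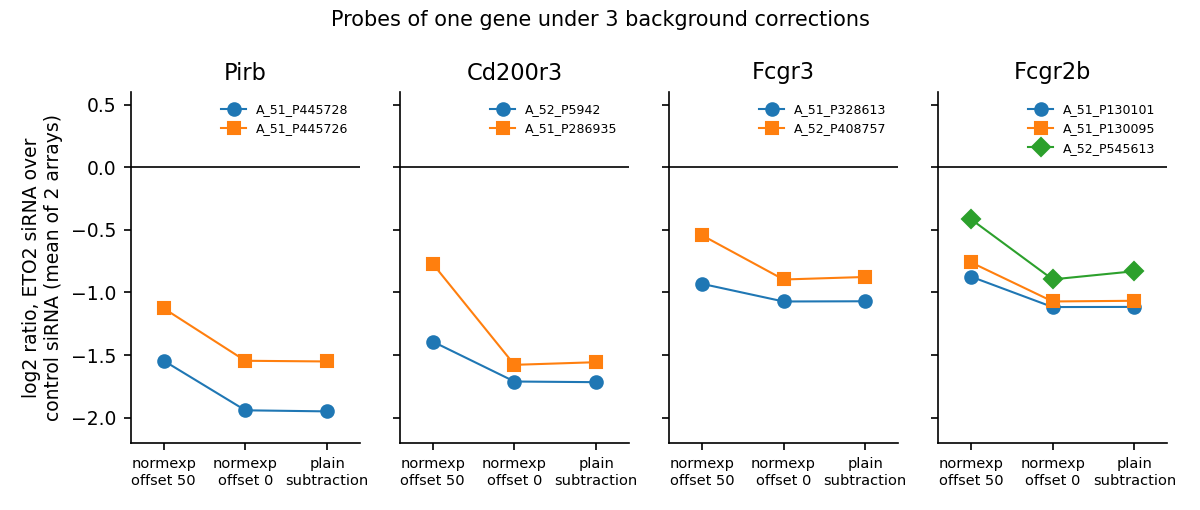
Log2 ratio of ETO2 siRNA over control siRNA (y axis, mean of 2 arrays) of the usable probes of Pirb, Cd200r3, Fcgr3 and Fcgr2b under the correction with an offset of 50, with an offset of 0 and with plain subtraction of the local background (x axis). Lines join the values of a probe, and in each gene the probes move down without the offset. Plain subtraction was centred on a median per array in place of loess.

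Of the 8 genes, 5 lie on chromosome 1, 2 on chromosome 7 and Cd200r3 on chromosome 16. In the gene order of the RefSeq table, Fcgr2b, Fcgr4 and Fcgr3 are neighbours on chromosome 1, and Fcgr4, with its log2 ratio of -0.05, lies between the 2 lower receptors. Beyond them, Fcrla (0.02) and Cfap126 (-0.03) did not pass the test. Around Pirb, the activating relative Lilra6 was lower at -0.25 (limma adjusted p = 0.00542), on a probe the array file names Pira3, while a second probe read -0.02. The inhibitory collagen receptor Lair1 was lower at -0.19 (limma adjusted p = 0.0263). With the mean of probes neither passed the test, at limma adjusted p = 0.0774 and 0.0667, and Lilra6 also lost its call with the processed signals and the deposited ratios. Mboat7, a lipid-modifying enzyme on the other side, was lower at -0.70 (limma adjusted p = 8.14e-07). Between Mboat7 and Pirb lie Tsen34, lower at -0.20 (limma adjusted p = 0.019), and Rps9, a ribosomal protein gene called higher (limma adjusted p = 2.08e-05) but saturated in the control channel. Tyrobp lies next to Hcst, which encodes the adaptor DAP10 and had a log2 ratio of -0.62 ± 0.02 (SD, n = 2; limma adjusted p = 2.49e-06), a larger fall than that of Tyrobp. Beside Cd200r3, the inhibitory receptor Cd200r1 was at least 1.15-fold lower (limma adjusted p = 0.00241), a bound because its ETO2 siRNA channel was not well above background. A bound sets the mean of the brighter channel against the lowest signal well above background in the dimmer one, and is open to dye bias. Syne4 (-0.56) near Tyrobp and Dusp12 (-0.30) near Fcgr2b were also called lower. Other neighbours were called higher, among them Sdhc (0.39) near Fcgr3, Tomm40l (0.23) and B4galt3 (0.35) near Fcer1g, and Gtpbp8 and Atg3 (0.17 each) near Cd200r3.

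Other close relatives were too dim to be measured. Fcgr1, the high-affinity IgG receptor, and Ms4a2, the beta chain of the IgE receptor, were not well above background in either channel of either array. The same held for the activating receptor Pira1, the inhibitory receptor Lilrb4a and the ligand Cd200. The activating receptor Pira6 was well above background only in the control siRNA channel of 1 array. These relatives were picked after values were seen. The genes whose 2 array ratios lay nearest to those of Pirb were Hkdc1, Alox5ap and Itgal, at distances of 0.10, 0.10 and 0.16 over the 2 arrays. Nearest to Fcer1a, the gene with the smallest mean ratio of the 8, were Fkbp7, Plagl1 and Map3k15, all within 0.00444.

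The stretch of 250 bases before the gene start was looked at in 7 of the 8 genes, from RefSeq (GRCm38.p6). The windows of Cd200r3 and Pirb, the genes with the largest falls, are printed with every GATA or its reverse complement TATC in capitals, since GATA-1 is known to bind sites with these letters.
Cd200r3, chr16:44943428-44943677, plus strand: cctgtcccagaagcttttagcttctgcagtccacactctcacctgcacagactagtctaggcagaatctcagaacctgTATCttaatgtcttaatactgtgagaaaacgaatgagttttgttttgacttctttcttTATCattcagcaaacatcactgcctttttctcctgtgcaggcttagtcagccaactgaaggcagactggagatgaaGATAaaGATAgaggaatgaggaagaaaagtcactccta
Pirb, chr7:3720383-3720632, minus strand: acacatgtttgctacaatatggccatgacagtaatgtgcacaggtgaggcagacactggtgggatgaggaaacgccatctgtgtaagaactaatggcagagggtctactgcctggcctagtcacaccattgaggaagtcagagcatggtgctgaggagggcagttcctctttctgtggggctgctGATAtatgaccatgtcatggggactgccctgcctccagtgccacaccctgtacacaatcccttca
The motif AGATAA or any of its 3 variants, which are AGATAG and then TGATAA and then TGATAG, searched on both strands with overlapping matches counted separately, stood in 27.1% of the 27025 windows of this length. The Cd200r3 window held 3 such matches, starting 115, 39 and 33 bases before the start, with the last 2 as capitals near the right end. Fcgr4 and Fcer1a, whose ratios were near 0, held 1 match each, and Pirb, Fcgr2b, Fcgr3 and Fcer1g held 0. The shorter letters GATA stood in 54.1% of windows, with 4 matches for Cd200r3, 3 for Fcgr4, 2 each for Fcgr3 and Fcer1a, 1 each for Pirb and Fcer1g and 0 for Fcgr2b. The motifs were chosen after the ratios were seen, and a match or its absence says nothing of binding.

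The other genes of the receptor pathway were taken from 6 lists of receptors, adaptors, enzymes and ligands, with 171 genes, of which 156 were on the array and 107 were measured. Of these, 43 (40.2%) were lower and 7 (6.54%) higher with limma, and their median log2 ratio was -0.11. Over all genes the shares were 22.3% and 18.4%. The median of the lists lay below that of all genes under each scaling tried, by 0.09 with loess and by 0.12 with median centring. Under median centring the counts were 77 lower and 1 higher. The lists were chosen with earlier results of these data known, so nothing is read from these shares or medians beside those of all genes.

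Adaptors and scaffolds had 13 lower and 0 higher of 21 measured, with a median of -0.21. Dok2, a docking protein that restrains Ras signalling, had a log2 ratio of -1.01 ± 0.02 (SD, n = 2; limma adjusted p = 2.31e-08). Grb2, which brings exchange factors to activated receptors, read -0.74 ± 0.15 (limma adjusted p = 1.15e-06). Lat, the membrane scaffold that activating receptors phosphorylate, read -0.68 ± 0.01 (limma adjusted p = 1.04e-06). These 3 and Hcst were lower on both arrays. The calls of this list rest on the brightest probe of each gene. Fyb, Grap2 and Dok1, called lower, each had another kept probe above 0, at 0.16, 0.21 and 0.21. Skap2 had one at -0.02, and Cd247 was not well above background after ETO2 siRNA. All kept probes of Grb2 and Ndfip1 were lower, up to -0.70 and -0.26.

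Kinases, lipases and exchange factors had 12 lower and 5 higher of 36, with a median of -0.07. Rasgrp4, a Ras exchange factor known from mast cells, fell most, with a log2 ratio of -1.31 ± 0.04 (SD, n = 2; limma adjusted p = 2.08e-09) and a second probe at -0.54. Tec, a kinase of phospholipase C activation, read -1.07 ± 0.04 (limma adjusted p = 1.26e-08). Itpr2, a calcium release channel of the endoplasmic reticulum, read -1.09 ± 0.04 (limma adjusted p = 1.07e-08) on its brightest probe, but its 5 probes reached up to -0.02. Pik3cd, a catalytic subunit of phosphoinositide 3-kinase, read -0.57, with a second probe at 0.08.

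The 4 largest rises of that list were small or depended on the probe or the scaling. Vav2, an exchange factor downstream of activated receptors, read 0.45 on one probe and -0.20 on the other. Sos1, a Ras exchange factor, read 0.29 ± 0.27 (SD, n = 2), and neither it nor Vav2 passed the test with median centring. The phosphoinositide 3-kinase subunits Pik3cb and Pik3r1 read 0.21 and 0.20 and turned to -0.18 and -0.27 with median centring. The 4 Pik3r1 probes ranged from -0.02 to 0.61, and their mean was 0.42.

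Phosphatases and ubiquitin ligases that limit the signal had 6 lower and 1 higher of 17, with a median of -0.13. Inpp5d, the lipid phosphatase SHIP1 that Fcgr2b recruits, had a log2 ratio of -0.55 ± 0.05 (SD, n = 2; limma adjusted p = 8.53e-06). The ubiquitin ligases Cbl and Nedd4 read -0.50 and -0.39. The receptor phosphatase Ptprj was at least 1.35-fold lower, with its ETO2 siRNA channel not well above background. Itch, a ubiquitin ligase, was the member called higher, at 0.18, and turned to -0.31 with median centring and -0.06 with the processed signals.

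Among other activating receptors, 5 were lower and 1 higher of 15 measured, with a median of -0.10. Pilrb1, an activating paired receptor, read -0.68 ± 0.19 (SD, n = 2; limma adjusted p = 3.47e-06), and the C-type lectin receptors Clec4d and Clec4n read -0.24 and -0.22. Gp6, the collagen receptor of platelets that pairs with Fcer1g, went the other way at 0.68 ± 0.11 (limma adjusted p = 1.56e-06). Other receptors with inhibitory motifs had 3 lower and 0 higher of 11, with a median near 0, and the largest fall was that of Siglecf at -0.72 ± 0.11 (limma adjusted p = 9.33e-07). Of 7 ligands, 4 were lower and 0 higher, with a median of -0.26. Among them were B2m, the light chain of MHC class I, at -0.46 (limma adjusted p = 7.18e-05), and the heavy chains H2-D1 at -0.31 and H2-K1 at -0.26. All 4 lost their calls with the deposited ratios, at limma adjusted p between 0.0607 and 0.168, and H2-K1 also with the processed signals. Pirb is known to bind MHC class I.

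**Figure D4:**
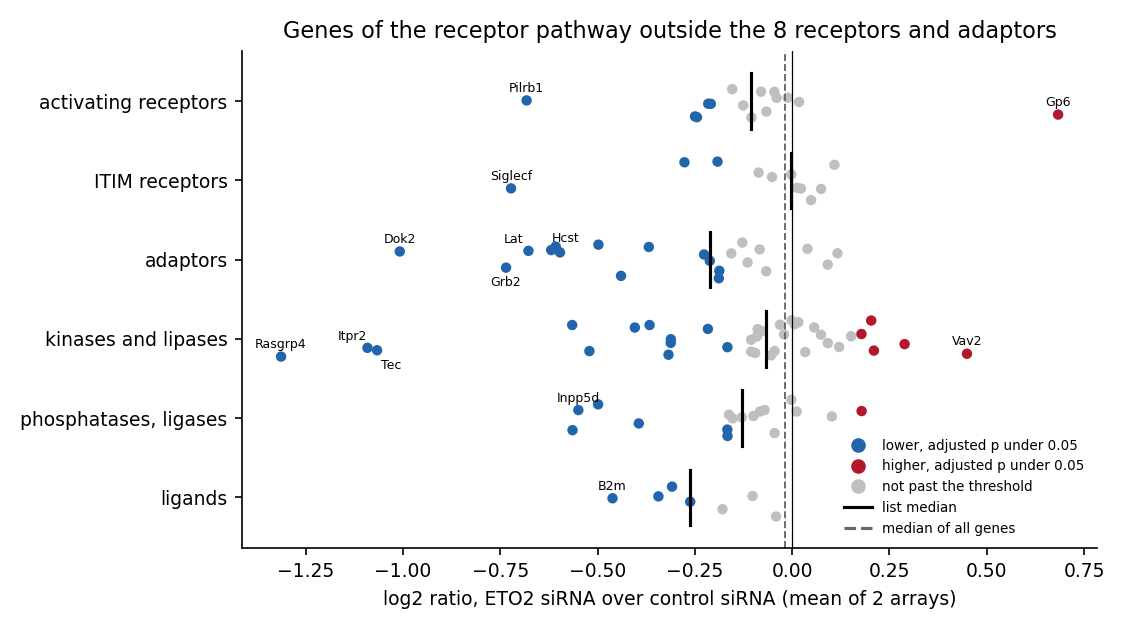
Log2 ratio of ETO2 siRNA over control siRNA (x axis, mean of 2 arrays) of the 107 measured genes of the 6 pathway lists (y axis), coloured by the limma call, with black lines at list medians and a dashed line at the median of all genes. Each gene is drawn by its brightest kept probe. Adaptors hold 13 genes lower and 0 higher by that probe, and the largest falls are those of Rasgrp4, Itpr2, Tec and Dok2. The vertical spread within a list has no meaning, and 5 genes that were dim after ETO2 siRNA are drawn at their measured ratio.

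These are whole-culture RNA samples, in which fewer cells of a type and less RNA per cell cannot be told apart. Markers of mast cells and basophils moved both ways: of 10 measured, Hdc (-1.38), Gata2 (-1.07), Srgn and Kit (-0.98) were lower, and Mcpt1 (0.66), Mcpt2, Mcpt4 (0.49) and Il1rl1 (0.44) were higher. Mcpt2 was not well above background in control siRNA cells, where Mcpt1 and Mcpt4 had low levels of 6.49 to 6.56. The lower markers were brighter there, from Hdc at 8.85 and 8.75 to Srgn at 15.3 and 15.4. The defining mast cell genes Ms4a2, Tpsab1 and Tpsb2 were not well above background. The summed processed signal of that list was 40660 and 44441 in ETO2 siRNA cells, against 68045 and 74668 in control siRNA cells. Most of that sum came from Srgn, a proteoglycan core protein of many blood cells, at 35226 and 38214 in ETO2 siRNA cells, against 58471 and 64027 in control siRNA cells. The part of these markers in the receptor values was not tested.

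Of the eosinophil markers, 4 of 5 measured were lower, Prg3 (-1.06), Siglecf (-0.72), Prg2 (-0.61) and Il5ra (-0.25), and their sum was 1026 and 1334 in ETO2 siRNA cells, against 1642 and 1768 in control siRNA cells. The largest part of that sum came from Il5ra, at 589 and 868 in ETO2 siRNA cells, against 711 and 826 in control siRNA cells. Without Il5ra the sum was 420 and 438 in ETO2 siRNA cells, against 907 and 917 in control siRNA cells. The part of the eosinophil markers was likewise not tested. Macrophage markers gave 0 limma calls of 6 measured, and 0 at an unadjusted p under 0.05, and Adgre1, Itgam, Lyz2 and C1qa were not well above background. The sum of that list was 886 and 979 in ETO2 siRNA cells, against 935 and 1035 in control siRNA cells. Of the neutrophil markers, Prtn3 alone of 5 measured was lower, at -0.33. All 11 measured erythroid markers were called higher, from Klf1 at 0.25 to Slc4a1 at 2.88. Eraf was saturated in the control channel and Hba-a1 in both channels, so the ratios of these genes measure neither size nor direction. The labels call the cells both erythroid and embryonic stem cells, and the stem cell genes Nanog, Sox2, Zfp42 and Dppa3 were not well above background.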

How the data were processed

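Spot brightness was read with Agilent Feature Extraction 9.1.3.1, per the file headers, which gave the deposited mean and background intensity on a linear scale, without normalization. The deposited processed intensity was background-subtracted and dye-normalized by that software, per the file headers. The authors' deposited table holds its log10 ratio of red over green, rounded, with a median of 0 per array. The array design's build is not stated in what was used here.

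Mean signals were corrected with limma 3.58.1 (R 4.3.3) by normexp with an offset of 50, normalized by loess (control features at weight 0), and turned to ETO2 siRNA over control siRNA. Outlier flags removed 10 and 4 spots. Spots of a probe were averaged. Of 41174 probes, 24430 with a channel well above background on both arrays were kept, named through the RefSeq table of GRCm38.p6, and the brightest stood for its gene. All 8 genes passed. Ratios were tested against 0 by lmFit and eBayes (two-sided), Benjamini-Hochberg adjusted over 16585 genes. With 2 arrays and 1 residual degree of freedom, a sign permutation cannot give p below 0.5, so calls rest on the shared variance model (13.6 prior degrees of freedom), and p-values measure only the spread between these arrays. The number of arrays limits the precision. The steps were tested on simulated arrays. Those had the same base levels on both arrays and no dye effect of single probes, so they do not bear on how many calls here reflect dye.

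The 8 genes and the lists were chosen with earlier results of these data known. The stem cell markers were added after the other lists. Genes were named by rule: all 8, up to 4 called genes per list and direction with the largest ratio, measured markers, 3 neighbours a side, the nearest genes by array ratios, and Cbfa2t3. Some adaptors outside that rule were named for the spread or dimness of their probes. Alternatives were an offset of 0, processed signals, median centring, the deposited ratios, other filters, the mean of probes and each array left out.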

Additional observations from a re-analysis of the deposited data

How the results depend on the processing

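The main counts were 3051 genes higher and 3696 lower, and in the pathway lists 7 higher and 43 lower. With processed signals there were 840 higher and 2457 lower, and 2 higher in the lists. With median centring there were 464 higher and 10807 lower, and in the lists 1 higher and 77 lower. With the deposited ratios there were 1147 higher and 1220 lower, and in the lists 3 higher and 26 lower. An offset of 0 left 4 higher in the lists, and the mean of probes 3. The cause of these moves was not tested.

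Pirb, Cd200r3, Fcgr3 and Fcgr2b were called lower under all 8 alternatives with a test. Their log2 ratios ranged from -1.95 to -1.34, from -1.87 to -1.08, from -1.31 to -0.74 and from -1.13 to -0.68 over 11 alternatives. Fcer1g lost its call with the deposited ratios, Fcgr4 gained one with the processed signals, and Tyrobp, which ranged from -0.89 to -0.25, was not kept where both channels had to be above background. Of 87 alternative values of the 8 genes, 34 moved by more than the SD between arrays, 30 of them to a larger fall, and 0 of the called genes changed sign. Many of the other values could not move. Leaving out 1 of 2 arrays always shifts a mean by less than that SD. The filter settings returned the same ratio wherever a gene was kept, as did the mean of probes for genes with 1 kept probe. The count is therefore no measure of stability. With array 1 or array 2 left out, 8 and 7 of the 8 genes were below 0 on the remaining array, with no test. Fcer1g ranged from -0.50 to -0.16 and Fcgr4 from -0.34 to 0.01. The test of within-array ratios already pairs the channels. No paired analysis was possible because no further block by replicate number remains once each array gives 1 ratio. Low signal over background limits Tyrobp and Fcgr4 most.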
